A study of Homo sapiens with 10 samples.

Results

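Interferon-stimulated genes are the genes that cells switch on when type I or type III interferon, or the cell's own sensors of foreign nucleic acid, signals the presence of a virus. The members described here are 43 such genes, listed by symbol, of 52402 gene symbols counted by mRNA-sequencing. They were measured in BEAS2B, an immortalised line of human bronchial epithelial cells, in 5 groups of 2 libraries. All groups were BEAS2B cells transfected with Lipofectamine 2000 and collected at 48 h. The miRcontrol group received a scrambled miRNA at 50 nM. The miR3124_mimic group received a mimic of miR-3124-5p, the miR200b_mimic group a mimic of miR-200b-3p and the miR92b_inhibitor group an inhibitor of miR-92b, each at 50 nM. The 3-miRNA mixed group received both mimics and the inhibitor, at a dose that the sources used here do not give. The question was how each single miRNA, and the 3 together, changed mRNA in a normal lung cell line.

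Interferon binds receptors whose kinases, JAK1 and TYK2, phosphorylate STAT proteins, among them STAT2. With IRF9 these form the complex ISGF3, which binds a DNA element called the interferon-stimulated response element (ISRE) in the promoters of its target genes. The products sense viral RNA (DDX58, which encodes RIG-I, and IFIH1, which encodes MDA5), trigger RNA decay (the OAS enzymes), bind foreign RNA (the IFIT family), block viral entry (the IFITM family), trap incoming viral particles (MX1 and MX2) or attach the ubiquitin-like protein ISG15 to other proteins. Airway epithelium is a main site of this response in viral infection of the lung. A miRNA represses mRNAs chiefly by pairing its seed, bases 2 to 8, with the 3′UTR, and an inhibitor binds the miRNA itself.

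The mature sequences of the transfected miRNAs were taken from RefSeq (GRCh38.p14), with the seed in capitals, and are shown because the seed defines the words searched in the members' 3′UTRs. Both arms of miR-92b are given, since the labels do not say which arm the inhibitor binds. They lie on chromosome 1, all on the plus strand: miR-3124-5p at chr1:248826383-248826403, miR-200b-3p at chr1:1167160-1167181, miR-92b-5p at chr1:155195196-155195217 and miR-92b-3p at chr1:155195237-155195258.
miR-3124-5p: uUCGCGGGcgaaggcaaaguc
miR-200b-3p: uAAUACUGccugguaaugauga
miR-92b-5p: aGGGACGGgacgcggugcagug
miR-92b-3p: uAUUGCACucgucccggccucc
The 4 seeds differ from each other. For the 39 members that passed the filter on low counts, the 3′UTR of the coding transcript with the greatest length (GENCODE v29) was searched for the 7 bases complementary to each seed. CAGTATT, the word of miR-200b-3p, stood in 7 members (17.9%), which were DDX60, DTX3L, IFIT2, IFIT5, PARP14, SAMD9 and USP18, against 19.5% of 12224 genes. GTGCAAT, the word of miR-92b-3p, stood in 5 (12.8%), which were IFIT2, IFITM1, OAS1, PARP14 and PARP9, against 13.1%. CCGTCCC, the word of miR-92b-5p, stood in EPSTI1 (2.56% of members, against 4.19% of genes), and CCCGCGA, the word of miR-3124-5p, in 0 members, against 0.622% of genes. The members' 3′UTRs were shorter, with a median of 816 bases against 1344.5.

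The promoters of the members, from 250 bases before to 50 bases after the start, were read from RefSeq (GRCh38.p14), where 36 of the 43 matched. IFIT2, IFITM2, MX2, OAS2, OASL, DHX58 and USP18 were not matched. The core letters of the ISRE, GAAA followed by any 2 bases and GAAA again, on either strand, were found in 26 of the 36 promoters (72.2%, exact 95% binomial interval 54.8 to 85.8%) and in 4.38% of 27305 genes. The looser pattern GAAANNGAA, which includes every match of the first, was found in 27 (75%, against 9.86% of genes). The pattern TTCNNNGAA, the core of the gamma-activated sequence (GAS) element, was found in 10 (27.8%, against 9.38% of genes). CMPK2, DDX58, HERC6, IFI35, OAS1, SAMD9L, SP100, STAT2, UBE2L6 and XAF1 held no strict match in this window. The windows of 30 bases below are given for members whose levels are described later, in the direction of the gene, with the ISRE letters in capitals.
ISG15: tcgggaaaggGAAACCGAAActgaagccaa
IFI6: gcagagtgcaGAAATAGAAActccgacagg
IFIH1: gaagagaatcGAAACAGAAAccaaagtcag
PARP14: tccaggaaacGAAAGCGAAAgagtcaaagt
IFITM1: caaacagcagGAAATAGAAActtaagagaa
MX1: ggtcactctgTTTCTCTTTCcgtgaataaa
GBP1: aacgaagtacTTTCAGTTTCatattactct
IFIT1: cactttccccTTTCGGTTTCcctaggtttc
In MX1, GBP1 and IFIT1 the match lies on the strand opposite to the gene. The windows lie at chr1:1013380-1013409 (plus strand) for ISG15, chr1:27672266-27672295 (minus) for IFI6, chr2:162318686-162318715 (minus) for IFIH1, chr3:122680800-122680829 (plus) for PARP14, chr11:313990-314019 (plus) for IFITM1, chr21:41431844-41431873 (plus) for MX1, chr1:89065316-89065345 (minus) for GBP1 and chr10:89392510-89392539 (plus) for IFIT1. The ISRE letters stood 21 bases before the start in IFIH1, 29 in PARP14, 40 in IFITM1, 93 in IFI6, 103 in IFIT1, 107 in ISG15, 127 in GBP1 and 196 in MX1. This start is that of the RefSeq promoter entry. It can lie inside the GENCODE v29 gene span given below, as it does for ISG15 and MX1. A match of letters is a description of the sequence and not a measured binding site.

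The libraries held 13587666 to 18503890 counts, which makes 1 count worth 0.0538 to 0.0748 CPM (a gene's counts as parts per 1000000 of the library's normalised counts), and 3.18 to 4.04% of counts came from mitochondrial genes. Replicate libraries differed by more than counting noise in every group. Nothing in the labels says whether the libraries of a group came from separate cultures, so the p-values measure the spread between these libraries, which may be technical. KRT5, a keratin of basal airway cells, had 0 to 9 counts per library, while the 7 epithelial markers together ranged from 2098 to 4270 CPM and 3 mesenchymal markers from 4383 to 7334 CPM. Of the 6 tested epithelial markers, 6 rose and 0 fell with the miR200b_mimic, 5 rose and 1 fell in the 3-miRNA mixed group, 2 rose and 1 fell with the miR3124_mimic, and 0 rose and 2 fell with the miR92b_inhibitor. Of the 3 mesenchymal markers, 3 fell with the miR200b_mimic and 3 in the 3-miRNA mixed group, 1 fell with the miR3124_mimic, and 1 rose and 2 fell with the miR92b_inhibitor. EPCAM (8 and 2 counts in miRcontrol) and CDH1 (3 and 2) passed the filter only through the miR200b_mimic and 3-miRNA mixed libraries, where they rose. The keratin gene KRT19 was the 1 epithelial marker that fell with the miR3124_mimic and in the 3-miRNA mixed group. It was at 8.47 and 7.94 CPM in miRcontrol, 0.615 and 0.905 with the miR3124_mimic and 2.49 and 2.74 in the 3-miRNA mixed group. With the miR200b_mimic KRT19 was at 13.8 and 15.1 CPM. VIM, the 1 mesenchymal marker that fell with the miR3124_mimic, was at 3894 and 3707 CPM in miRcontrol but 827 and 799 there. The 6 leukocyte markers together ranged from 17.7 to 42.2 CPM, of which CD68 made 17.3 to 40.7 CPM, and 1 of them was at 0 in all libraries. CD68 rose with the miR92b_inhibitor (0.58, adjusted p = 5.08e-08) and fell with the miR200b_mimic (-0.52, adjusted p = 4.50e-06) and in the 3-miRNA mixed group (-0.20, adjusted p = 0.0481). CD14 went from 0.801 and 1.43 CPM in miRcontrol to 12.7 and 12.4 with the miR3124_mimic (3.49 ± 0.23, adjusted p = 7.96e-18). The part of these markers in the members' changes was not tested. The defining leukocyte marker PTPRC had at most 2 counts, 2 of 3 plasmacytoid dendritic cell markers were at 0 with at most 1 count of the other, and no endothelial marker passed 10 counts.

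Of the 43 members, 39 passed the filter on low counts and were tested. IFI27 was at 0 in all libraries, and IFI44L (5 counts), CMPK2 (3) and RSAD2 (2) were nearly so over all 10 libraries together, although all of them are strongly induced by interferon in many cell types. Per kilobase of exon, the highest levels in miRcontrol were those of IFITM3 (72.4 CPM per kb), IFITM2 (34.5), ISG15 (17.3), SAMD9 (13.0), UBE2L6 (11.2) and IFI6 (10.9). MX2 was the lowest of those detected (0.00448 CPM per kb). In the 3-miRNA mixed group, IFITM3 remained highest at 114 CPM per kb, followed by IFI6 at 61.3 and ISG15 at 39.6. The members were therefore present at a range of levels before any mimic or inhibitor, from abundant IFITM transcripts to genes with single counts.

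Against miRcontrol, most members that changed were higher, and the number was largest with the 3 miRNAs together. In the 3-miRNA mixed group 26 of the 39 members (66.7%) rose with a Benjamini-Hochberg adjusted p, taken over all 14884 genes, below 0.05 by the quasi-likelihood test of edgeR, where 21.5% of all genes rose. In the same comparison 3 members (7.69%) fell, where 21.1% of genes fell. With the miR92b_inhibitor 18 (46.2%) rose, against 17.5% of genes, and 1 (2.56%) fell, against 18.2%. Fewer members rose without the second miR92b_inhibitor library, a fit in which the share of all genes was not counted. With the miR3124_mimic 16 (41.0%) rose, against 25.7% of genes, and 3 fell, against 25.3%. DESeq2 called 10 members higher there, and its share of all genes was not counted. With the miR200b_mimic 13 (33.3%) rose, against 21.4% of genes, and 3 fell, against 19.1%. The median log2 fold change of the tested members was 0.59 in the 3-miRNA mixed group and 0.37 with the miR92b_inhibitor. With the miR3124_mimic it was 0.29 and with the miR200b_mimic 0.24. Over all genes the median lay between -0.006 and 0.004 in these comparisons. For the members it was 0.24 with the miR92b_inhibitor and 0.16 with the miR200b_mimic without the second library of that group. All 4 comparisons share the same control libraries, so their counts are not independent of each other. In bulk RNA, more cells expressing a gene and more RNA of it per cell cannot be told apart.

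By a cut of 2-fold or more and an unadjusted p under 0.05, 10 members (25.6%) rose in the 3-miRNA mixed group against 3.55% of genes. By this measure 7 (17.9%) rose with the miR92b_inhibitor against 1.24% of genes, 4 (10.3%) with the miR3124_mimic against 5.87%, and 2 (5.13%) with the miR200b_mimic against 2.99%. No member fell by that much in any group, where 1.87% of genes did in the 3-miRNA mixed group, 1.38% with the miR92b_inhibitor, 2.95% with the miR3124_mimic and 2.71% with the miR200b_mimic. Both libraries of the 3-miRNA mixed group lay above both control libraries for 31 members (79.5%), against 34.9% of genes. The same held for 24 members (61.5%) with the miR92b_inhibitor against 32.1% of genes. It held for 22 (56.4%) with the miR3124_mimic against 37.6% and for 22 (56.4%) with the miR200b_mimic against 33.9%. The 2-fold counts include members with under 10 counts in both control libraries, which passed the filter only through libraries with a mimic or inhibitor. These were MX2 and XAF1 in the 3-miRNA mixed group, and MX2, XAF1 and IFI44 with the miR92b_inhibitor. With the miR3124_mimic they were XAF1 and OASL, and with the miR200b_mimic OASL. The 2-fold cut was not counted again without such members.

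**Figure D1:**
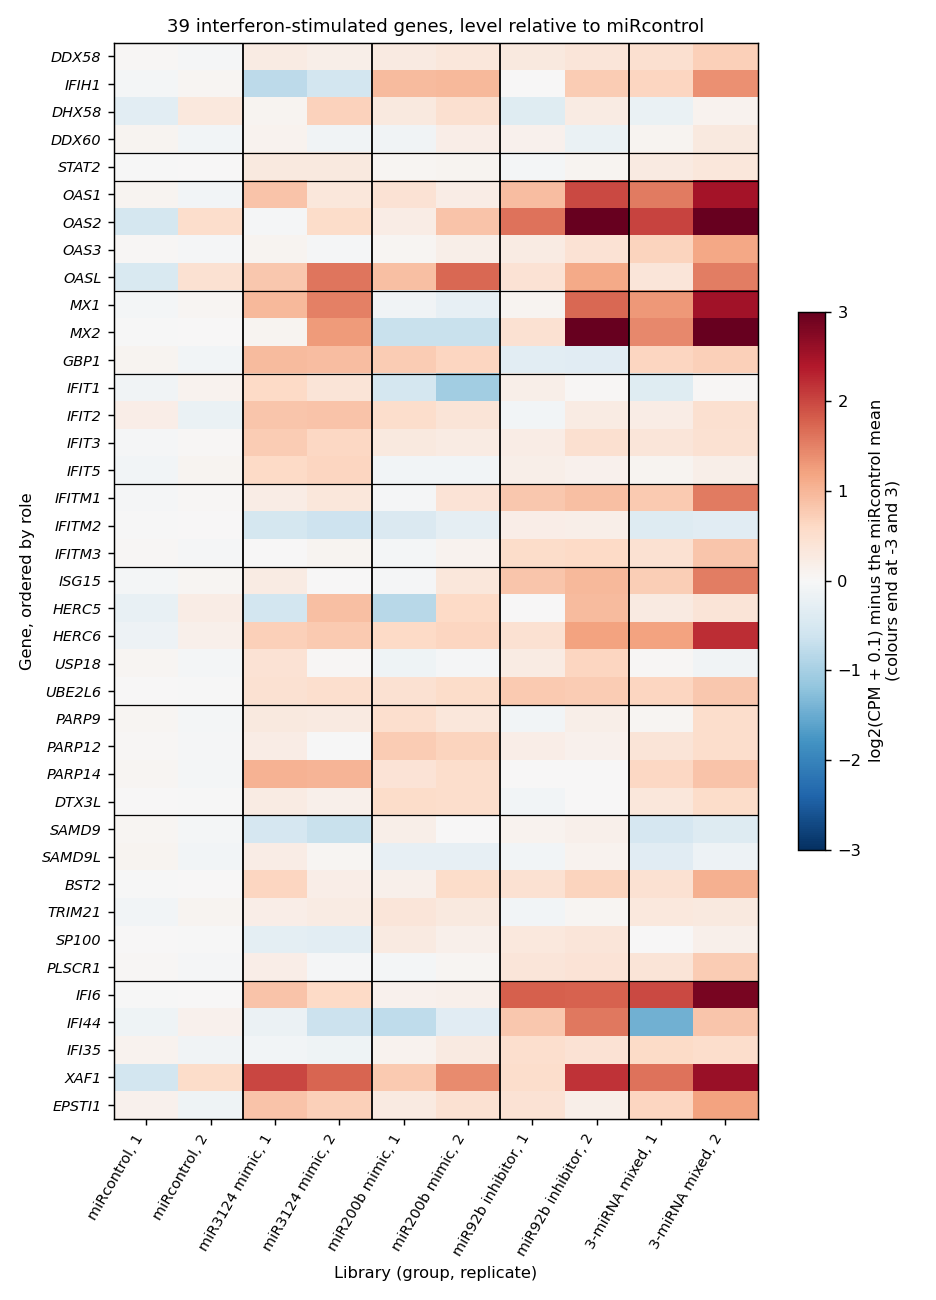
Level of the 39 tested members (rows, ordered by role) in the 10 libraries (columns), as log2(CPM + 0.1) minus the mean of the 2 miRcontrol libraries, with colours ending at -3 and 3. Most rows are above the control in the 3-miRNA mixed libraries, and its second library is the highest for many of them, while the IFIT rows are highest with the miR3124_mimic.

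The groups also differed in which members rose. IFIT3, DDX58 and UBE2L6 were called higher in all 4 comparisons, as 1.94% of all genes were. BST2 was called in the 3-miRNA mixed group and in no single transfection. IFIT1, IFITM2, SP100 and GBP1 were called higher in some groups and lower in others. IFI44, DHX58, DDX60, HERC5 and USP18 were called in no comparison with miRcontrol, and the other 34 tested members in at least 1, as were 75.1% of all genes. HERC5, IFI44, MX2, OASL and XAF1 had under 10 counts in both control libraries. They passed the filter on low counts only through libraries with a mimic or inhibitor. Among the other 34 tested members 15 rose with the miR3124_mimic, 12 with the miR200b_mimic, 16 with the miR92b_inhibitor and 24 with the 3 miRNAs together.

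The OAS enzymes make short adenylate chains on sensing double-stranded RNA, and their genes rose with the miR92b_inhibitor and in the 3-miRNA mixed group. Of the 4 members, 3 (OAS1, OAS2 and OAS3) rose in both of these groups, 0 rose with the miR3124_mimic and 1 (OASL) with the miR200b_mimic. OAS2 (chr12:112978395-113011723, plus strand, GRCh38) was at 0.401 and 0.955 CPM in miRcontrol, 0.615 and 0.962 with the miR3124_mimic, 0.748 and 1.21 with the miR200b_mimic, 2.16 and 6.79 with the miR92b_inhibitor and, in the 3-miRNA mixed group, 2.88 and 7.43. The last 4 libraries lay above the other 6, but the second library of both groups was far above the first. OAS2 rose by a log2 fold change of 2.93 ± 0.43 (SE, adjusted p = 1.88e-07) in the 3-miRNA mixed group and of 2.73 ± 0.44 (adjusted p = 2.16e-06) with the miR92b_inhibitor. Without the second library, the values were 2.08 (adjusted p = 0.000724) and 1.67 (adjusted p = 0.0137). The miR3124_mimic (0.25, adjusted p = 0.765) and miR200b_mimic (0.57, adjusted p = 0.483) libraries of OAS2 overlapped the control.

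OAS1 (chr12:112906777-112933222, plus strand) was at 1.55 and 1.37 CPM in miRcontrol, 2.73 and 1.87 with the miR3124_mimic, 2.02 and 1.73 with the miR200b_mimic, 2.86 and 6.08 with the miR92b_inhibitor and, in the 3-miRNA mixed group, 4.48 and 8.66. Every library with a mimic or inhibitor lay above both controls. The spread within the miR92b_inhibitor and 3-miRNA mixed groups was again wide. OAS1 rose by 2.17 ± 0.29 on the log2 scale (adjusted p = 3.03e-08) in the 3-miRNA mixed group and by 1.62 ± 0.31 (adjusted p = 4.56e-05) with the miR92b_inhibitor. Without the second miR92b_inhibitor library the latter was 0.97 and no longer passed (adjusted p = 0.0510). In the 3-miRNA mixed group without its second library it was 1.61 (adjusted p = 0.000137). OAS3, the synthetase of long chains, was at 58.9 and 55.3 CPM in miRcontrol, 67.5 and 77.2 with the miR92b_inhibitor, and 90.4 and 128.6 with the 3 miRNAs together. Its log2 fold change was 0.94 ± 0.082 (adjusted p = 1.75e-13) in the 3-miRNA mixed group and 0.34 ± 0.086 (adjusted p = 0.00137) with the miR92b_inhibitor, where it did not pass without the second library (0.24, adjusted p = 0.0925) or under DESeq2 (adjusted p = 0.166).

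The interferon-inducible GTPases form a second group. MX1 (chr21:41420304-41459214, plus strand), a restriction factor of influenza viruses, was at 1.32 and 1.43 CPM in miRcontrol, 2.80 and 4.13 with the miR3124_mimic, 1.27 and 1.15 with the miR200b_mimic, 1.46 and 4.76 with the miR92b_inhibitor and, in the 3-miRNA mixed group, 3.54 and 8.34. The miR200b_mimic libraries lay below the controls, and the first miR92b_inhibitor library only just above them. MX1 rose by 2.11 ± 0.34 on the log2 scale (adjusted p = 1.26e-06) in the 3-miRNA mixed group, by 1.35 ± 0.38 (adjusted p = 0.00237) with the miR3124_mimic and by 1.19 ± 0.38 (adjusted p = 0.0110) with the miR92b_inhibitor. The call with the miR92b_inhibitor rested on its second library, without which the change was 0.09 (adjusted p = 0.926), and was also lost without the first miRcontrol library (1.13, adjusted p = 0.0749). Without the second miR3124_mimic library the change was 1.02 (adjusted p = 0.0658), and without the second 3-miRNA mixed library it was 1.36 (adjusted p = 0.00503). The DESeq2 Wald test, which kept the call in the 3-miRNA mixed group, did not call MX1 with the miR3124_mimic (adjusted p = 0.123) or the miR92b_inhibitor (adjusted p = 0.209).

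GBP1, a guanylate-binding protein gene that responds most strongly to interferon gamma, showed another pattern. It was at 28.0 and 25 CPM in miRcontrol, 51.2 and 50.5 with the miR3124_mimic, 45.2 and 41.4 with the miR200b_mimic, 21.1 and 20.7 with the miR92b_inhibitor and, in the 3-miRNA mixed group, 41.5 and 43.8. The replicate libraries lay close together, and the 6 libraries that received a mimic lay above the controls while both miR92b_inhibitor libraries lay below them. The log2 fold changes were 0.94 ± 0.073 (adjusted p = 2.57e-15) with the miR3124_mimic, 0.70 ± 0.075 (adjusted p = 8.65e-11) with the miR200b_mimic and 0.69 ± 0.074 (adjusted p = 8.51e-11) in the 3-miRNA mixed group. With the miR92b_inhibitor GBP1 changed by -0.34 ± 0.083 (adjusted p = 0.000884), a fall that did not pass without the first miRcontrol library (-0.26, adjusted p = 0.0539).

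MX2, XAF1 and OASL had under 1 CPM on average and are named because they passed the test, a choice made after their values were seen. MX2, a restriction factor of HIV, had 1 and 1 counts in miRcontrol, 1 and 5 with the miR3124_mimic, 0 and 0 with the miR200b_mimic, 2 and 42 with the miR92b_inhibitor and, in the 3-miRNA mixed group, 6 and 22. Only the second libraries of the last 2 groups took MX2 past the filter, and the first miR92b_inhibitor library lay under the floor of 3 counts, so nothing is read from its calls in these 2 groups. Both were lost without those second libraries, with fitted log2 fold changes of 0.92 and 2.36 (adjusted p = 0.751 and 0.224). XAF1, a proapoptotic gene, had 1 and 4 counts in miRcontrol, 12 and 12 with the miR3124_mimic, 4 and 9 with the miR200b_mimic, 4 and 17 with the miR92b_inhibitor and, in the 3-miRNA mixed group, 11 and 24. Its log2 fold change was 2.29 ± 0.75 (adjusted p = 0.00883) with the miR3124_mimic, 1.96 ± 0.77 (adjusted p = 0.0413) with the miR92b_inhibitor and 2.64 ± 0.70 (adjusted p = 0.00172) in the 3-miRNA mixed group. OASL, which lacks synthetase activity, had 2 and 5 counts in miRcontrol and 6 and 15 with the miR200b_mimic (1.69 ± 0.70, adjusted p = 0.0496). Without the first miRcontrol library no XAF1 call remained (adjusted p = 0.137, 0.315 and 0.0609 in that order), and the last 2 were lost without the second library of their own group (adjusted p = 0.733 and 0.0884). The XAF1 call with the miR3124_mimic was also lost under DESeq2 (adjusted p = 0.0546). The OASL call was lost without either miRcontrol library (1.16 and 2.49), without the second miR200b_mimic library (1.11) and in most other alternatives.

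**Figure D2:**
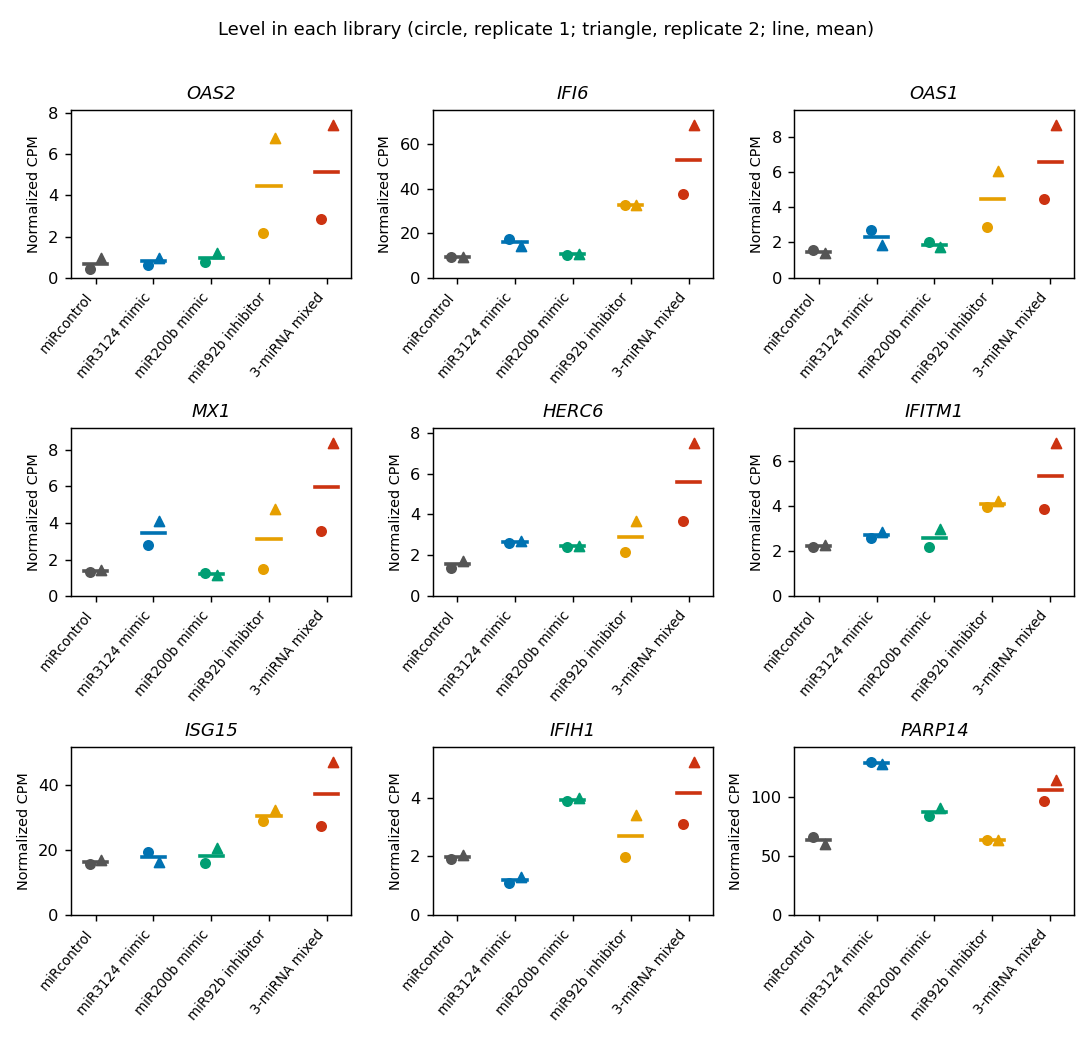
CPM in each library for the 9 members past a 2-fold change and an adjusted p of 0.05 in at least 1 comparison with miRcontrol and a mean of at least 1 CPM (circles, first library; triangles, second library; lines, group mean; each panel with its own vertical axis from 0). OAS2, OAS1 and MX1 separate widely between the 2 libraries of the miR92b_inhibitor and 3-miRNA mixed groups, whereas PARP14 does not.

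ISG15 and the enzymes that attach or remove it form a further set. Of these 5 members, 3 rose with the miR92b_inhibitor, 3 in the 3-miRNA mixed group, 2 with the miR3124_mimic and 1 with the miR200b_mimic. ISG15 (chr1:1001138-1014540, plus strand) was at 15.7 and 17.0 CPM in miRcontrol, 19.5 and 16.4 with the miR3124_mimic, 15.9 and 20.5 with the miR200b_mimic, 29 and 32.2 with the miR92b_inhibitor and, in the 3-miRNA mixed group, 27.4 and 47.2. The last 4 libraries lay above the other 6. ISG15 rose by 0.91 ± 0.14 on the log2 scale (adjusted p = 5.71e-07) with the miR92b_inhibitor and by 1.2 ± 0.13 (adjusted p = 1.89e-10) in the 3-miRNA mixed group, or by 0.75 without the second library of the latter. With the miR3124_mimic (0.13, adjusted p = 0.506) and the miR200b_mimic (0.18, adjusted p = 0.377) the test did not pass.

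HERC6 (chr4:88378739-88443111, plus strand), an interferon-induced gene of the HERC ubiquitin ligase family, was at 1.37 and 1.73 CPM in miRcontrol, 2.60 and 2.72 with the miR3124_mimic, 2.39 and 2.47 with the miR200b_mimic, 2.16 and 3.67 with the miR92b_inhibitor and, in the 3-miRNA mixed group, 3.71 and 7.48. All 8 libraries with a mimic or inhibitor lay above the controls. In the 3-miRNA mixed group HERC6 rose by 1.85 ± 0.28 (adjusted p = 3.07e-07), and by 1.25 (adjusted p = 0.00162) without its second library. The rises with the miR92b_inhibitor (0.92 ± 0.31, adjusted p = 0.0175) and the miR3124_mimic (0.78 ± 0.32, adjusted p = 0.0401) were not called by DESeq2 (adjusted p = 0.0905 and 0.15). The HERC6 call with the miR92b_inhibitor was lost without its second library (0.48, adjusted p = 0.410) or the first miRcontrol library (0.76, adjusted p = 0.144), and that with the miR3124_mimic without any 1 of the 4 libraries compared (0.62 to 0.95). UBE2L6, the conjugating enzyme of ISG15, rose in every group, by 0.48 ± 0.078 with the miR3124_mimic, 0.51 ± 0.079 with the miR200b_mimic, 0.78 ± 0.075 with the miR92b_inhibitor and 0.73 ± 0.075 in the 3-miRNA mixed group (adjusted p = 9.61e-07, 5.90e-07, 1.26e-11 and 2.59e-11). USP18, which removes ISG15 and damps receptor signalling, and HERC5, the main ligase, were called in no comparison, HERC5 at 2 to 14 counts per library.

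The IFITM proteins, membrane proteins that hinder viral fusion, split by gene. All 3 genes rose with the miR92b_inhibitor. IFITM1 (chr11:313506-315272, plus strand) was at 2.18 and 2.27 CPM in miRcontrol, 2.60 and 2.83 with the miR3124_mimic, 2.17 and 2.99 with the miR200b_mimic, 3.97 and 4.22 with the miR92b_inhibitor and, in the 3-miRNA mixed group, 3.87 and 6.78. The miR92b_inhibitor and 3-miRNA mixed libraries stood above all others. IFITM1 rose by 0.88 ± 0.25 (adjusted p = 0.00432) with the miR92b_inhibitor and by 1.26 ± 0.24 (adjusted p = 2.04e-05) in the 3-miRNA mixed group, or by 0.80 (adjusted p = 0.0233) without the second library of the latter. IFITM3, the member with the highest level per kilobase, was at 100.5 and 94.7 CPM in miRcontrol, 98.5 and 102.7 with the miR3124_mimic, 93.8 and 104.2 with the miR200b_mimic, 143.8 and 147.3 with the miR92b_inhibitor and, in the 3-miRNA mixed group, 133.8 and 173.5. It rose by 0.58 ± 0.064 (adjusted p = 4.29e-10) with the miR92b_inhibitor and by 0.66 ± 0.063 (adjusted p = 3.44e-12) in the 3-miRNA mixed group, whereas the other 2 groups overlapped the control.

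IFITM2 went the other way wherever a mimic was present. It was at 53.1 and 53.2 CPM in miRcontrol, 36.6 and 34.5 with the miR3124_mimic, 39.5 and 44.1 with the miR200b_mimic, 61.1 and 60.5 with the miR92b_inhibitor and, in the 3-miRNA mixed group, 40.8 and 42.1. All 6 libraries that received a mimic lay below the controls, and both miR92b_inhibitor libraries above them. The log2 changes were -0.58 ± 0.066 (adjusted p = 2.41e-10), -0.34 ± 0.065 (adjusted p = 2.62e-05) and -0.36 ± 0.063 (adjusted p = 6.18e-06) with the miR3124_mimic, the miR200b_mimic and the 3 miRNAs together. With the miR92b_inhibitor the change was 0.19 ± 0.060 (adjusted p = 0.00971), which did not pass without either miRcontrol library or without the first miR92b_inhibitor library. The annotated IFITM1 and IFITM2 genes overlap by 1767 bases on the same strand, so the way their reads were divided could affect both values.

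The IFIT family, whose proteins bind viral RNA, rose most often with the miR3124_mimic. All 4 genes were called there, with log2 fold changes of 0.83 ± 0.14 for IFIT2 (adjusted p = 2.25e-06), 0.69 ± 0.097 for IFIT3 (adjusted p = 4.61e-08), 0.63 ± 0.069 for IFIT5 (adjusted p = 1.16e-10) and 0.49 ± 0.14 for IFIT1 (adjusted p = 0.00252). IFIT1 was at 9.16 and 10.4 CPM in miRcontrol, 14.8 and 12.8 with the miR3124_mimic, 6.73 and 4.72 with the miR200b_mimic, 11.1 and 10.0 with the miR92b_inhibitor and, in the 3-miRNA mixed group, 7.58 and 10.1. The miR3124_mimic libraries lay above the controls and the miR200b_mimic libraries below them. With the miR200b_mimic IFIT1 fell by 0.80 on the log2 scale (SE 0.16, adjusted p = 6.46e-05). The rise of IFIT1 with the miR3124_mimic did not pass under DESeq2 (adjusted p = 0.0530), without the first miR3124_mimic library (0.38, adjusted p = 0.0510) or without the first miRcontrol library (0.39, adjusted p = 0.0548).

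IFIT2 was at 8.59 and 6.39 CPM in miRcontrol, 13.2 and 13.5 with the miR3124_mimic, 10.8 and 9.67 with the miR200b_mimic, 6.94 and 8.81 with the miR92b_inhibitor and, in the 3-miRNA mixed group, 8.63 and 10.4. Its 2 mimic groups lay above the controls, with a change of 0.44 ± 0.15 (adjusted p = 0.0152) for the miR200b_mimic that did not pass without the second miRcontrol library (0.24, adjusted p = 0.296), without the first miR200b_mimic library (0.37, adjusted p = 0.109) or under DESeq2 (adjusted p = 0.101). IFIT5 was at 31.4 and 35.4 CPM in miRcontrol, 50.9 and 52.1 with the miR3124_mimic and 31.3 to 37.7 in the other 6 libraries, and of the 4 comparisons passed in that with the miR3124_mimic. IFIT3, the partner that stabilises IFIT1 on RNA, rose in every group, by 0.69 with the miR3124_mimic and by 0.27 ± 0.10 (adjusted p = 0.0323), 0.37 ± 0.099 (adjusted p = 0.00280) and 0.41 ± 0.099 (adjusted p = 0.000649) with the miR200b_mimic, the miR92b_inhibitor and the 3 miRNAs together. The first of these did not pass without any 1 of the 4 libraries compared (0.25 to 0.29), and the second not without the second miR92b_inhibitor library (0.23, adjusted p = 0.172). The IFIT genes lie in a cluster at chr10:89283694-89421001.

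Of the 4 RNA sensor genes, IFIH1 changed most. IFIH1 (chr2:162267079-162318703, minus strand), which encodes the long double-stranded RNA sensor MDA5, was at 1.89 and 2.03 CPM in miRcontrol, 1.09 and 1.30 with the miR3124_mimic, 3.89 and 3.97 with the miR200b_mimic, 1.98 and 3.39 with the miR92b_inhibitor and, in the 3-miRNA mixed group, 3.10 and 5.22. The miR3124_mimic libraries lay below the controls and the miR200b_mimic and 3-miRNA mixed libraries above them. IFIH1 rose by 1.0 ± 0.27 (adjusted p = 0.00244) with the miR200b_mimic and by 1.09 ± 0.26 (adjusted p = 0.000674) in the 3-miRNA mixed group, where it did not pass without the second library (0.66, adjusted p = 0.112). The difference with the miR3124_mimic, -0.70 ± 0.34, did not pass (adjusted p = 0.0842). DDX58, the sensor of RNA ends, rose by 0.21 ± 0.086 (adjusted p = 0.0368) with the miR3124_mimic, 0.31 ± 0.086 (adjusted p = 0.00271) with the miR200b_mimic, 0.32 ± 0.084 (adjusted p = 0.00183) with the miR92b_inhibitor and 0.61 ± 0.081 (adjusted p = 2.12e-08) in the 3-miRNA mixed group. The first was lost without any 1 of the 4 libraries compared (0.17 to 0.25), and the second without the second miR200b_mimic library (0.27, adjusted p = 0.0537). DHX58 and DDX60, which modulate this sensing, were called in no comparison.

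The ADP-ribosyltransferase genes of the PARP family and DTX3L, the ubiquitin ligase that pairs with PARP9, formed the group that rose with both mimics and in the mixture. Of these 4 genes, 3 rose with the miR3124_mimic, 4 with the miR200b_mimic, 4 in the 3-miRNA mixed group and 0 with the miR92b_inhibitor, whose 4 differences ranged from -0.03 (DTX3L) to 0.16 (PARP12). PARP14 (chr3:122680618-122730840, plus strand) was at 65.8 and 60.3 CPM in miRcontrol, 129.5 and 127.6 with the miR3124_mimic, 83.4 and 90.4 with the miR200b_mimic, 63.3 and 63.3 with the miR92b_inhibitor and, in the 3-miRNA mixed group, 96.8 and 114.3. No mimic library overlapped the controls, and the miR92b_inhibitor libraries lay between them. PARP14 rose by 1.03 ± 0.058 (adjusted p = 3.72e-20) with the miR3124_mimic, 0.47 ± 0.061 (adjusted p = 1.66e-08) with the miR200b_mimic and 0.74 ± 0.059 (adjusted p = 7.74e-15) in the 3-miRNA mixed group. Its 3′UTR holds the words of miR-200b-3p and of miR-92b-3p given above.

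PARP12 rose by 0.71 ± 0.078 (adjusted p = 1.90e-10) with the miR200b_mimic and by 0.46 ± 0.078 (adjusted p = 3.83e-06) in the 3-miRNA mixed group. DTX3L rose by 0.54 ± 0.059 (adjusted p = 1.16e-10), 0.45 ± 0.058 (adjusted p = 6.85e-09) and 0.21 ± 0.060 (adjusted p = 0.00311) with the miR200b_mimic, the 3 miRNAs together and the miR3124_mimic, the last not passing without the first miR3124_mimic library (0.16, adjusted p = 0.0672). PARP9 rose by 0.41 ± 0.10 (adjusted p = 0.00111) with the miR200b_mimic. Its rises with the miR3124_mimic (0.28 ± 0.10, adjusted p = 0.0242) and in the 3-miRNA mixed group (0.31 ± 0.10, adjusted p = 0.0109) did not pass under DESeq2 (adjusted p = 0.145 and 0.0934), and in the mixed group the change was 0.06 (adjusted p = 0.722) without the second library. DTX3L and PARP9 lie head to head on opposite strands of chromosome 3 and overlap by 340 bases.

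IFI6 stood out among the induced genes of less settled role. IFI6 (chr1:27666061-27672218, minus strand), which encodes a membrane protein reported to limit apoptosis and flavivirus replication, was at 9.39 and 9.49 CPM in miRcontrol, 17.3 and 14.4 with the miR3124_mimic, 10.4 and 10.5 with the miR200b_mimic, 32.7 and 32.5 with the miR92b_inhibitor and, in the 3-miRNA mixed group, 37.5 and 68.6. The libraries of each group kept apart from those of every other group. IFI6 rose by 2.49 ± 0.15 (adjusted p = 5.74e-19) in the 3-miRNA mixed group, by 1.79 ± 0.16 (adjusted p = 1.28e-12) with the miR92b_inhibitor and by 0.74 ± 0.18 (adjusted p = 0.000677) with the miR3124_mimic. Without the second 3-miRNA mixed library the first of these was 1.99, and with the miR200b_mimic the change was 0.15 (adjusted p = 0.596). EPSTI1 rose by 0.79 ± 0.16 (adjusted p = 4.74e-05) with the miR3124_mimic and by 0.97 ± 0.15 (adjusted p = 9.36e-07) in the 3-miRNA mixed group. IFI35 rose by 0.47 ± 0.12 (adjusted p = 0.00176) with the miR92b_inhibitor and 0.54 ± 0.12 (adjusted p = 0.000204) in the 3-miRNA mixed group, the first not passing without the second miRcontrol library (0.37, adjusted p = 0.0552). IFI44, with 1 to 21 counts per library, did not pass by adjusted p.

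Among the other restriction factors, SAMD9 and SAMD9L were the members that fell in the 3-miRNA mixed group besides IFITM2. SAMD9, an inhibitor of poxvirus protein synthesis, was at 93.0 and 84.9 CPM in miRcontrol, 62.8 and 55.9 with the miR3124_mimic, 100.2 and 88.9 with the miR200b_mimic, 96.3 and 98.4 with the miR92b_inhibitor and, in the 3-miRNA mixed group, 63.0 and 68.3. The miR3124_mimic and 3-miRNA mixed libraries lay below all others, with changes of -0.59 ± 0.061 (adjusted p = 1.65e-11) and -0.44 ± 0.059 (adjusted p = 2.37e-08). SAMD9L changed by -0.25 with the miR200b_mimic (SE 0.083, adjusted p = 0.0122) and by -0.25 in the 3-miRNA mixed group (SE 0.080, adjusted p = 0.0109), neither of which passed without the first miRcontrol library (-0.16 in both) or under DESeq2 (adjusted p = 0.0954 and 0.0872). They were lost also without the second miR200b_mimic library (-0.24) and the first 3-miRNA mixed library (-0.16). SP100, a nuclear body protein, was at 93.4 and 93.0 CPM in miRcontrol, 76.4 and 74.8 with the miR3124_mimic, 112.8 and 103.8 with the miR200b_mimic, 116.8 and 119.3 with the miR92b_inhibitor and, in the 3-miRNA mixed group, 93.5 and 104.1. It changed by -0.30 ± 0.054 (adjusted p = 5.02e-06), 0.21 ± 0.052 (adjusted p = 0.000696), 0.34 ± 0.050 (adjusted p = 3.66e-07) and 0.08 ± 0.051 (adjusted p = 0.186) in that order. BST2, which tethers budding virus, passed in the 3-miRNA mixed group (0.83 ± 0.26, adjusted p = 0.00728) but not without its second library (0.48, adjusted p = 0.263) or under DESeq2 (adjusted p = 0.0761). PLSCR1 rose by 0.39 ± 0.10 (adjusted p = 0.00178) with the miR92b_inhibitor and 0.59 ± 0.099 (adjusted p = 2.41e-06) in the 3-miRNA mixed group, and TRIM21, a cytosolic antibody receptor, by 0.33 ± 0.11 (adjusted p = 0.0134) with the miR200b_mimic and 0.30 ± 0.11 (adjusted p = 0.0183) in the 3-miRNA mixed group. The TRIM21 calls were lost under DESeq2 (adjusted p = 0.102 and 0.134), without the first miRcontrol library (0.26 and 0.23), without the first miR200b_mimic library (0.31) and without either 3-miRNA mixed library (0.29 and 0.32). STAT2, the member that acts in signalling itself, rose by 0.29 ± 0.063 (adjusted p = 9.83e-05) with the miR3124_mimic and 0.30 ± 0.062 (adjusted p = 7.12e-05) in the 3-miRNA mixed group.

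**Figure D3:**
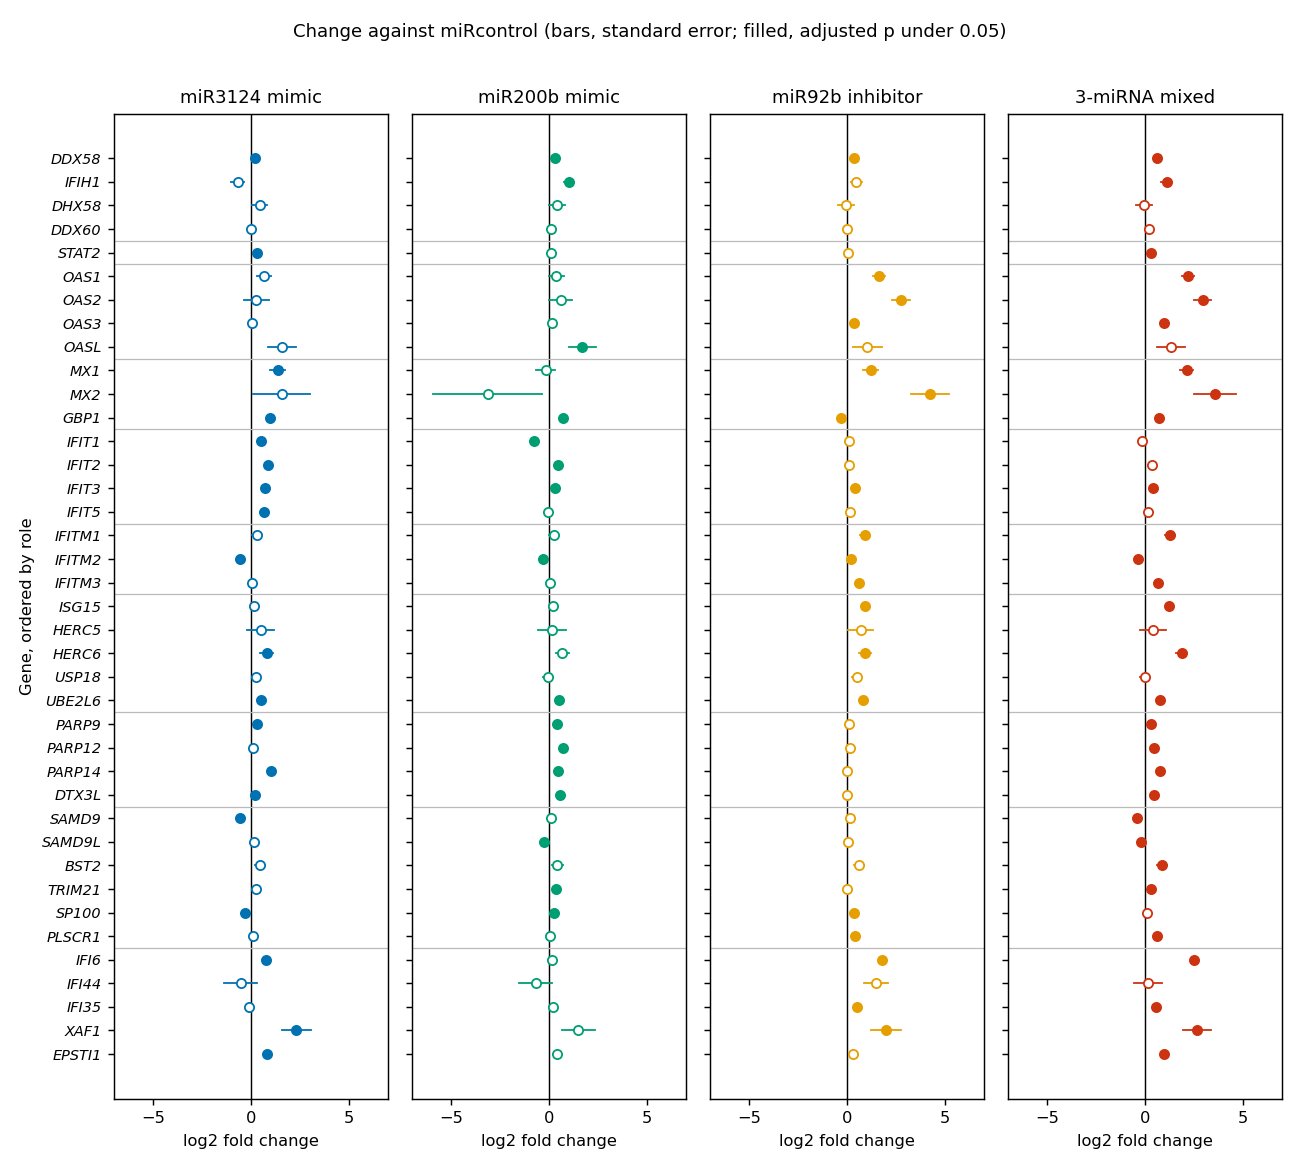
Log2 fold change of the 39 tested members against miRcontrol in each of the 4 transfections (horizontal axis, bars 1 SE, filled points adjusted p under 0.05, members ordered by role), with MX2, whose controls lie at the floor, at its fitted value, which is no bound. OAS2, IFI6, OAS1 and MX1 each have their largest rise in the 3-miRNA mixed panel, and each IFIT gene stands furthest right with the miR3124_mimic.

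The 3-miRNA mixed group was next compared with each single transfection. Against the miR200b_mimic 19 members (48.7%) were higher, where 18.2% of genes were, and 3 were lower, where 20.4% of genes were. Against the miR3124_mimic 19 were higher, where 25.3% of genes were, and 7 (17.9%) lower, where 23.8% of genes were. Against the miR92b_inhibitor 15 (38.5%) were higher, where 19.7% of genes were, and 4 (10.3%) lower, where 19.9% of genes were. These 3 comparisons share the mixed libraries. The median log2 difference of the members was 0.26, 0.25 and 0.25 in that order, but without the second 3-miRNA mixed library these were 0.15, 0.094 and -0.0091. The last was 0.12 without the first miR92b_inhibitor library. Without the second 3-miRNA mixed library fewer members were higher in all 3 comparisons. The share of all genes was not counted in that fit.

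The difference between the mixture and the miR92b_inhibitor depended on gene and library. OAS2 (0.19, adjusted p = 0.660), OAS1 (0.55, adjusted p = 0.0617) and IFITM1 (0.38, adjusted p = 0.155) did not pass. IFI6 was 0.70 ± 0.12 higher in the mixture (adjusted p = 4.77e-06), or 0.20 (adjusted p = 0.120) without the second mixed library, and HERC6 0.93 ± 0.25 higher (adjusted p = 0.00184), or 0.33 (adjusted p = 0.422). MX1 (0.92 ± 0.29, adjusted p = 0.00929) and IFIH1 (0.62 ± 0.25, adjusted p = 0.0408) likewise did not pass without that library (0.17 and 0.19). ISG15 was 0.29 ± 0.12 higher (adjusted p = 0.0499) and turned to -0.16 (adjusted p = 0.286) without it. PARP14 (0.74 ± 0.058, adjusted p = 9.34e-15), OAS3 (0.60 ± 0.079, adjusted p = 2.00e-08) and GBP1 (1.03 ± 0.076, adjusted p = 1.15e-15) were higher in the mixture and kept the call when any 1 library was left out.

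Against the miR3124_mimic the IFIT genes stood apart: all 4 were lower in the mixture, by -0.63 ± 0.14 for IFIT1 (adjusted p = 0.000131), -0.49 ± 0.13 for IFIT2 (adjusted p = 0.00207), -0.49 ± 0.068 for IFIT5 (adjusted p = 3.42e-08) and -0.29 ± 0.092 for IFIT3 (adjusted p = 0.00842). The differences of IFIT2 and IFIT3 did not pass without the first 3-miRNA mixed library (-0.36 and -0.24), nor that of IFIT3 without the first miR3124_mimic library (-0.21). PARP14 was also lower in the mixture, by -0.28 ± 0.054 (adjusted p = 1.92e-05). IFI6 (1.75 ± 0.14, adjusted p = 5.62e-15), IFIH1 (1.78 ± 0.30, adjusted p = 1.56e-06), OAS2 (2.68 ± 0.42, adjusted p = 6.15e-07), OAS1 (1.54 ± 0.27, adjusted p = 6.14e-06) and ISG15 (1.07 ± 0.13, adjusted p = 2.57e-09) were higher. For MX1, the difference of 0.76 ± 0.29 (adjusted p = 0.0255) was 0.02 without the second 3-miRNA mixed library. Against the miR200b_mimic the largest differences were those of OAS2 (2.35 ± 0.41, adjusted p = 6.27e-06), IFI6 (2.34 ± 0.15, adjusted p = 1.42e-17), MX1 (2.30 ± 0.36, adjusted p = 9.37e-07) and OAS1 (1.82 ± 0.29, adjusted p = 1.11e-06) among members with at least 1 CPM. IFIH1 (0.08, adjusted p = 0.820) and GBP1 (-0.02, adjusted p = 0.877) did not pass there.

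The spread between the libraries of a group was itself uneven for the members. Among 34 members with a mean of at least 1 CPM, 31 were higher in the second than in the first 3-miRNA mixed library, where 49.7% of 12900 genes were. In the miR92b_inhibitor group 24 were higher in the second library, where 46.1% of genes were. In miRcontrol 15 were, where 48.4% of genes were. In the miR3124_mimic group 12 were, against 47.4% of genes, and in the miR200b_mimic group 21, against 49.4%. The SD of the members' log2 differences between libraries was 0.45 in the miR92b_inhibitor group and 0.37 in the 3-miRNA mixed group, against 0.21 to 0.25 in the other 3 groups and 0.22 to 0.24 over all genes. MX1, OAS1 and OAS2 were at least 2-fold higher in the second miR92b_inhibitor library (log2 differences of 1.63, 1.06 and 1.60), where 0.364% of genes were. MX1 and OAS2 were so in the second 3-miRNA mixed library (1.21 and 1.33), where 0.209% of genes were, and OAS2 in the second miRcontrol library, where 0.318% were. The median log2 level of the tested members relative to the control mean was 0.39 and 0.72 in the first and second 3-miRNA mixed libraries, 0.24 and 0.44 with the miR92b_inhibitor, 0.25 and 0.30 with the miR3124_mimic, and 0.17 and 0.30 with the miR200b_mimic. All 8 were above 0. The part of this spread in the group differences was measured by leaving out each library, and its source was not tested.

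**Figure D4:**
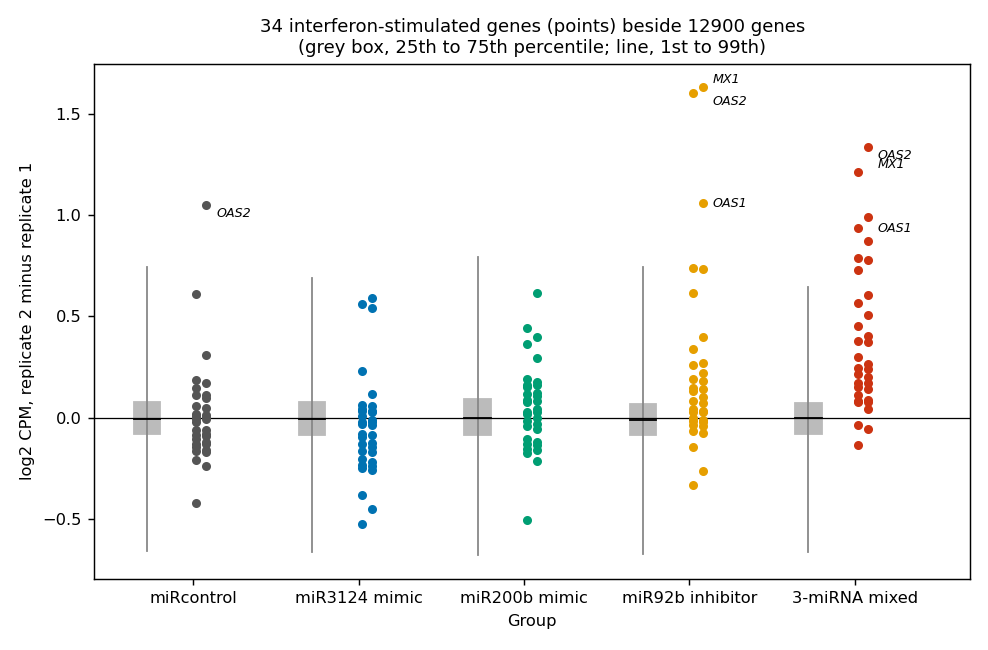
Log2 CPM of the second library minus the first within each group, for 34 members (points) and for 12900 genes with a mean of at least 1 CPM (box, 25th to 75th percentile; line, 1st to 99th percentile). Nearly all member points of the 3-miRNA mixed group lie above 0, and OAS2, MX1 and OAS1 lie above the 99th percentile of all genes in the miR92b_inhibitor group.

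The rest of the pathway was read from lists of genes outside the members, by the same test. Their counts are read against the shares of all genes given above, 25.7% higher and 25.3% lower with the miR3124_mimic, 21.4% and 19.1% with the miR200b_mimic, 17.5% and 18.2% with the miR92b_inhibitor, and 21.5% and 21.1% with the 3 miRNAs together. With lists this short, a count near these shares is no result about the list, and no list was tested as a set. IRF8, a transcription factor gene, had 8 and 7 counts in miRcontrol, and GBP2, of the interferon gamma list, had 6 and 5. Both passed the filter only through libraries with a mimic or inhibitor, and both count among the genes that rose with the miR3124_mimic. Of 21 interferon ligand genes, 16 were at 0 in all libraries and only IFNE, the epithelial interferon epsilon, passed the filter, at 13 to 25 counts per library and with no call. All ligands together made 0.759 to 1.53 CPM. Of 9 receptor and kinase genes, 4 rose and 2 fell with the miR3124_mimic, 1 and 2 with the miR200b_mimic, 0 and 3 with the miR92b_inhibitor, and 1 and 2 with the 3 miRNAs together. Of 8 transcription factor genes, 5, 3, 4 and 4 rose in that order, and 1, 0, 1 and 1 fell. The DNA-binding subunit of ISGF3, IRF9, was at 13.0 and 13.1 CPM in miRcontrol, 21.0 and 20.4 with the miR3124_mimic, 12.9 and 15.3 with the miR200b_mimic, 23.2 and 31.4 with the miR92b_inhibitor and, in the 3-miRNA mixed group, 28.9 and 38.2. The 6 libraries of the other 3 transfections lay above the controls, and the first miR200b_mimic library did not. IRF9 rose by 1.36 ± 0.12 (adjusted p = 6.44e-14) in the 3-miRNA mixed group, 1.07 ± 0.12 (adjusted p = 4.96e-10) with the miR92b_inhibitor and 0.66 ± 0.13 (adjusted p = 1.60e-05) with the miR3124_mimic.

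Of 17 further nucleic acid sensing genes tested, of 22 listed, 6 rose and 6 fell with the miR3124_mimic, 7 and 2 with the miR200b_mimic, 2 and 2 with the miR92b_inhibitor, and 7 and 3 with the 3 miRNAs together. TRIM25, the ubiquitin ligase of RIG-I, was not among these 17 genes. It was at 193 and 194 CPM in miRcontrol, 87.9 and 81.0 with the miR3124_mimic and 168 to 218 in the other 6 libraries. It fell by 1.2 on the log2 scale (SE 0.048, adjusted p = 5.01e-26) with the miR3124_mimic. IKBKE, a kinase of this pathway, rose by 1.02 ± 0.091 (adjusted p = 3.35e-13) in the 3-miRNA mixed group, 0.69 (adjusted p = 6.75e-08) with the miR200b_mimic and 0.34 (adjusted p = 0.00396) with the miR3124_mimic. The last did not pass without the first miRcontrol library (0.27, adjusted p = 0.0701). The exonuclease gene ISG20 rose by 1.45 ± 0.19 (adjusted p = 8.88e-09) with the miR3124_mimic, 0.79 ± 0.21 (adjusted p = 0.00163) with the miR200b_mimic and 1.18 ± 0.19 (adjusted p = 1.76e-06) in the 3-miRNA mixed group. The second of these did not pass without the first miRcontrol library (0.47, adjusted p = 0.120) or the second miR200b_mimic library (0.46, adjusted p = 0.195). Of 9 genes tested from a list of negative regulators, 2, 4, 3 and 4 rose in the 4 groups and 3, 1, 1 and 2 fell. This list held TRIM25, although it is given above as the ligase of RIG-I. Its fall with the miR3124_mimic and small rise with the miR92b_inhibitor (0.14) are among these counts. Of 13 interferon gamma associated genes 7 were tested, of which 6, 4, 5 and 4 rose and 0 fell. Among these, GBP3 rose by 1.48 ± 0.067 (adjusted p = 2.06e-23) in the 3-miRNA mixed group, 1.34 ± 0.069 (adjusted p = 2.25e-21) with the miR200b_mimic, 0.81 (adjusted p = 2.93e-13) with the miR3124_mimic and 0.27 (adjusted p = 0.00367) with the miR92b_inhibitor. The last did not pass without the second miRcontrol library or the second miR92b_inhibitor library (0.24 in both). ICAM1, an adhesion molecule gene, rose in every group, by 0.31, 0.25 and 0.65 with the miR3124_mimic, miR200b_mimic and miR92b_inhibitor (adjusted p = 2.75e-07, 2.78e-05 and 1.04e-15) and by 1.03 ± 0.045 (adjusted p = 3.59e-24) in the 3-miRNA mixed group. CIITA, at 5 to 36 counts per library, rose by 1.70 ± 0.44 (adjusted p = 0.00108) with the miR3124_mimic and by 1.33 (adjusted p = 0.0176) with the miR92b_inhibitor, where it did not pass without either miRcontrol library (1.38 and 1.29) or the second miR92b_inhibitor library (1.06).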

How the data were processed

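Poly(A) RNA of transfected BEAS2B cells was sequenced from directional libraries (NEBNext Ultra II Directional kit). The authors mapped the reads to GRCh38 with TopHat (submitters' processing notes) and deposited raw read counts per gene, without normalization. The counting tool and its strand setting are not given in the sources used here. The 58173 rows of a library hold 52402 symbols, and the 5771 rows with a repeated symbol were summed.

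Genes were filtered with filterByExpr, which kept 14884 genes and 39 of the 43 members, and all 10 libraries were fitted together in edgeR 4.0.16 with RLE factors (0.985 to 1.02) and the quasi-likelihood test, without covariates, in R 4.3.3 with limma 3.58.1. The common dispersion was 0.000751. Every p printed is adjusted by the Benjamini-Hochberg method over all tested genes. The counts by the 2-fold cut used an unadjusted p under 0.05. Levels are normalised CPM. Where no library of a group held more than 3 counts of a gene, the gene was taken to lie at the floor there and the fold is a bound. Each SE is the size of the log2 fold change divided by the square root of the test's F value. It therefore includes the estimated spread between libraries. Floors cover counting error only, and the binomial interval covers the number of promoters only. The script was tested on simulated data.

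The members, their roles and the pathway and marker lists were chosen with earlier results of these data known. Values in every library were given for members past a 2-fold change and an adjusted p of 0.05 against miRcontrol at a mean of at least 1 CPM, and members outside this rule that are given in the same way were chosen after their values were seen. Genes outside the members were named by the same rule, apart from IFNE and the markers, and some genes that passed it are not reported here. Alternatives were TMM factors, library totals, DESeq2 1.42.0, the edgeR exact test, a fit of the 2 groups compared, a replicate block, no filter, a minimum of 10 counts in all libraries, leaving out each library, and, for the promoters, the looser ISRE pattern. Chosen after seeing the data were the fit without the second libraries of both the miR92b_inhibitor and 3-miRNA mixed groups and the contrasts between single transfections. Gene positions and exon lengths are from GENCODE v29 (GRCh38).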

Additional observations from a re-analysis of the deposited data

Results flagged for a closer look

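For 4 members, groups were called in opposite directions against miRcontrol, and the difference between those groups passed the test itself (edgeR quasi-likelihood test, adjusted over all genes). The contrasts between single transfections were added after seeing the data. IFIT1 was higher with the miR3124_mimic than with the miR200b_mimic by 1.29 on the log2 scale (adjusted p = 8.14e-10), with both libraries of the former above and both of the latter below the controls. The IFITM2 level was lower with the miR3124_mimic than with the miR92b_inhibitor (-0.78, adjusted p = 1.78e-14), as it was with the miR200b_mimic (-0.53, adjusted p = 9.59e-10) and in the 3-miRNA mixed group (-0.55, adjusted p = 3.20e-10). The SP100 level was lower with the miR3124_mimic than with the miR200b_mimic (-0.52, adjusted p = 1.39e-11) and than with the miR92b_inhibitor (-0.64, adjusted p = 6.05e-15). GBP1 was higher with the miR3124_mimic than with the miR92b_inhibitor by 1.28 (adjusted p = 1.15e-19), and likewise with the miR200b_mimic by 1.05 (adjusted p = 8.14e-16) and in the 3-miRNA mixed group by 1.03 (adjusted p = 1.15e-15). With 2 libraries in each group, no group could be screened for a single outlying library.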

How the results depend on the processing

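Of 393 alternative values of the counts of called members and their medians, 368 stayed within a tolerance, 24 moved and 1 reversed. The tolerance was a set ratio for counts and 0.13 on the log2 scale for medians. It was wide, so that 9 members higher with the miR200b_mimic in place of 13 stayed within it. Many of the libraries left out also lay outside the comparison in question. The share of all genes called was not counted under any alternative. Counts of members from the alternatives therefore have no such share beside them. Of 3043 alternative values for single members, 2825 kept direction and side of the threshold, 198 lost the call, 16 gained it and 4 reversed. DESeq2 called 10 members higher with the miR3124_mimic, 1 lower in the mixture than with the miR200b_mimic and 8 higher in the mixture than with the miR92b_inhibitor. Without both second libraries of the miR92b_inhibitor and 3-miRNA mixed groups, the median was 0.24 with the miR92b_inhibitor, 0.40 in the 3-miRNA mixed group and 0.090 for the mixture against the miR3124_mimic. In that fit 12 members were higher in the mixture than with the miR3124_mimic, 10 higher and 5 lower than with the miR200b_mimic and 7 higher than with the miR92b_inhibitor, and ISG15 was at -0.085 in the last. The looser ISRE pattern matched 27 promoters.

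Leaving out 1 library at a time gave 12 to 16 members higher with the miR3124_mimic, 10 to 13 with the miR200b_mimic, 11 to 18 with the miR92b_inhibitor (11 without its second library) and 20 to 27 in the 3-miRNA mixed group. Members called lower with the miR92b_inhibitor were 0 to 1, with the 0 found when the first miRcontrol library was left out. The median in the 3-miRNA mixed group was 0.42 to 0.72. Against the miR3124_mimic 12 to 22 members were higher in the mixture, with a median of 0.094 to 0.43. Against the miR200b_mimic 9 to 19 were higher and 1 to 5 lower, with 1 lower without the first miR200b_mimic library. Against the miR92b_inhibitor 6 to 18 were higher, with a median of -0.0091 to 0.38. For the mixture, the lowest of these numbers of members higher and of these medians came without the second 3-miRNA mixed library. In this last comparison ISG15 ranged from -0.16 to 0.62, OAS1 from -0.0091 to 1.20 and MX2 from -1.87 to 2.63 on the log2 scale. The cause of these changes was not tested beyond the library left out.

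Over 12900 genes replicate numbers marked no pairing of the libraries, since deviations of same-numbered libraries correlated at -0.036 to 0.049. Over the 34 members with at least 1 CPM the same correlations were 0.105 to 0.687. For the members, same-numbered libraries therefore deviated in part together, and the source of this was not tested. The replicate block gave 16, 13, 19 and 26 members higher and 3, 3, 1 and 3 lower in the miR3124_mimic, miR200b_mimic, miR92b_inhibitor and 3-miRNA mixed groups. For the mixture against the single transfections, the block gave 20, 19 and 16 higher. The depth of the libraries limits MX2, XAF1, OASL, HERC5 and IFI44, with at most 42 counts in any library, and leaves IFI27, IFI44L, RSAD2 and CMPK2 without a test.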
